A study of Ovis aries with 42 samples.

Results

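The gallbladder of wild-type (WT) sheep was compared between birth and fetal life by RNA sequencing. The libraries were chosen by tissue and genotype, with earlier results of these data known. They were 2 WT gallbladder libraries at birth and 4 fetal ones, 2 at gestation day 100 (d100) and 2 at gestation day 120 (d120). These are 6 of the 42 samples in the series. The other samples are 6 gallbladder libraries from CFTR-/- (CF) fetuses at d80, d100 and d120, 24 liver libraries of both genotypes and 6 chromatin accessibility libraries. CFTR is the chloride and bicarbonate channel whose loss causes cystic fibrosis. All 6 libraries are labelled WT, no treatment is given in the labels, and sex is not given for these libraries. RNA came from homogenised pieces of frozen gallbladder, per the labels' protocols, although the design text of the series speaks of gallbladder epithelial cells. The donor numbers of the 2 d100 libraries differ in their last letter alone, so whether they are separate animals is not known. P-values measure only the spread between libraries of a group, estimated over all 12 gallbladder libraries, the CF ones included.

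The gallbladder is a sac lined by a single layer of columnar epithelium on connective tissue, smooth muscle and a serosa. The epithelium concentrates bile by taking up sodium and chloride, with water following, and it secretes mucin and bicarbonate. The muscle layer empties the sac into the intestine after a meal. The organ lies against the liver, and the fetal liver is a site of blood cell formation, so RNA of hepatocytes and of blood precursors can reach a gallbladder sample from adjoining tissue.

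Levels are given in CPM, counts scaled to a library total of 1000000, with fetal values listed as the d100 pair and then the d120 pair. Differences are fitted log2 levels at birth minus the mean of the fitted log2 levels at d100 and at d120, with their standard errors, from edgeR's quasi-likelihood test, so a stage at or near 0 weighs heavily. Where both libraries of a stage were at 0, the fitted value is no measure of size and only its adjusted p is given. A gene was called higher or lower at an adjusted p under 0.05 (Benjamini-Hochberg). Library totals were 32374693 to 54443213 estimated counts. The d100 libraries had Spearman rho 0.979 with each other across genes, the birth libraries 0.975 and the d120 libraries 0.934. The first d120 library stood apart, with 15387 genes above 0 against 18190 to 20191 genes in the other WT libraries.

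Hepatocyte RNA was present in every library and was highest at d100. ALB, the serum albumin gene of hepatocytes, had 17703 and 5080.3 CPM at birth, against 72088, 74596, 34904 and 23790 CPM in the fetal libraries. The birth libraries were both below the fetal ones, but the difference did not pass the test (log2 difference -2.03 ± 1.99, adjusted p = 0.446). A liver share was estimated for each library as the median, over 28 hepatocyte genes, of its level over that in WT liver of the same stage, with term liver used for birth. It came to 34.2% (quartiles 27.8 to 37.3) and 10.3% (8.34 to 12.6) at birth. At d100 it was 68.0% (64.0 to 73.8) and 72.0% (67.9 to 75.8), and at d120 24.0% (14.6 to 37.4) and 23.1% (15.7 to 30.2). The share was thus highest in the d100 pair, while the first birth library lay above both d120 libraries. Of the 28 hepatocyte genes, edgeR called none and 0 had an unadjusted p under 0.05, with a median log2 difference of -0.45 against 0.13 over all genes tested. The DESeq2 Wald test, which called 34.7% of all genes, called 0 of them higher and 3 lower. These shares were used to remove a liver estimate, share times liver level, from each gene. The percent of a gene's level in the liver estimate counts liver RNA of that gene alone. Liver RNA in a library can also lower the CPM of genes that are absent from liver, which this percent does not show. They rest on the WT liver libraries of the stage, not on liver from the same animals. In bulk tissue, fewer cells of a type and less RNA per cell cannot be told apart, here and in every list that follows.

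**Figure D1:**
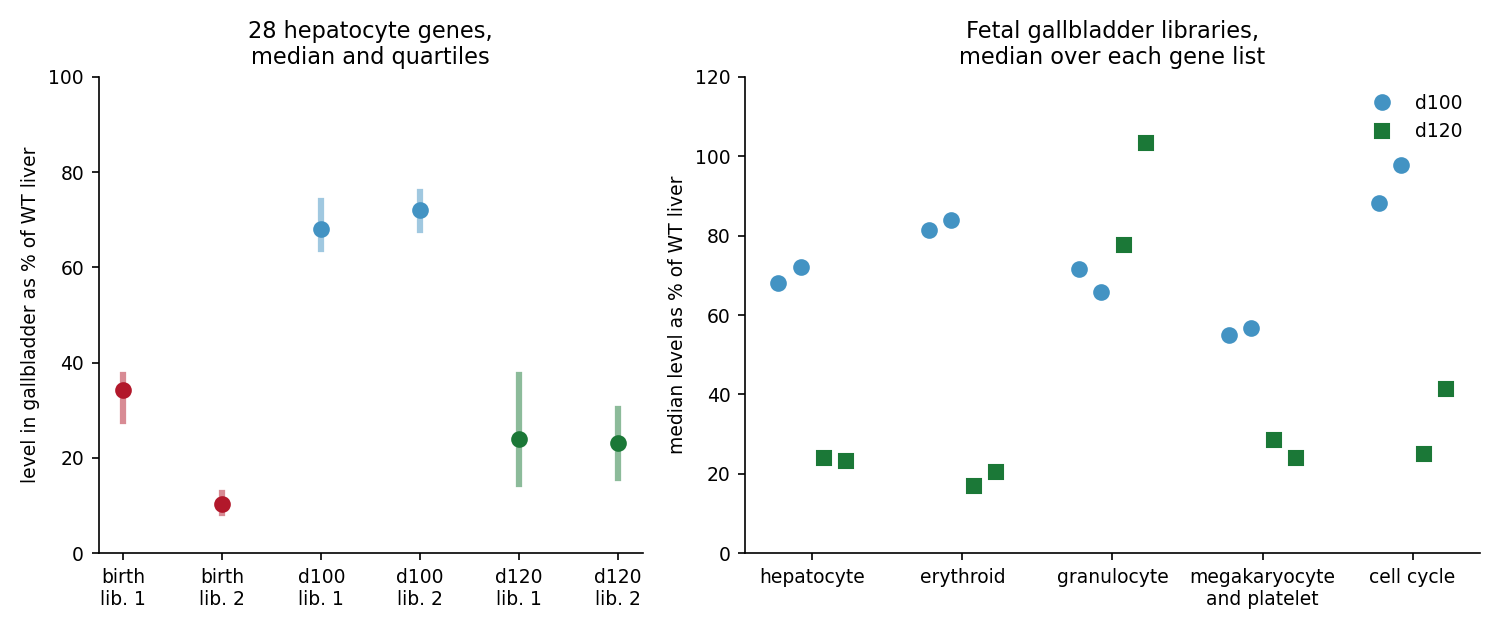
Left, the liver share of each WT gallbladder library (percent of the level in WT liver), with points for the median over 28 hepatocyte genes and bars for their quartiles; right, the median level of 5 gene lists in each fetal gallbladder library as a percent of WT liver of the same stage. The birth pair stands at 34.2% and 10.3%, the d100 pair at 68.0% and 72.0% and the d120 pair at 24.0% and 23.1%, and the d120 points lie below the d100 points in every list on the right but that of granulocytes.

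Of 18717 genes tested, 2988 were called higher at birth (16.0%) and 2086 lower (11.1%). In the gene lists, most calls were toward higher levels for epithelial and transport genes and toward lower levels for red cell, matrix and cell cycle genes. The liver estimate made up at least 50% of the level in the group where the gene was higher for 115 of 2570 genes called higher (4.47%) and for 596 of 1851 genes called lower (32.2%), over genes present in both tables. With the liver estimate subtracted, 2063 of 16316 genes were called higher (12.6%) and 1104 lower (6.77%). Of the genes called as deposited, 1161 of 2988 were called higher and 694 of 2086 lower at both the median and the upper quartile of the liver ratios. Subtraction moved the median over all genes to 0.23, against 0.13 before it, and its total of calls ranged over 124 to 5119 when 1 WT library was left out, lowest without the first birth library and highest without the second d120 library. Scaled on the 3775 tested genes under 1 CPM in WT liver, whose median was 0.35, 337 were called higher (8.93%) and 57 lower (1.51%), and no gene was called without the first d100 library. The calls depended on single libraries: the total of 5074 became 164 without the first d100 library and 185 without the second, 1920 without the first d120 library, 41 without the first birth library and 120 without the second. The CF d80 pair had the least alike replicates in the fit (rho 0.904). Leaving that pair out, an alternative chosen after seeing the data, gave 9343 calls (50.3% of the genes tested), and 5072 of the 5074 genes were among them in the same direction. In that smaller fit, 3888 of the 5074 calls were made whichever WT library was left out. With all 12 gallbladder libraries, 31 were.

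**Figure D2:**
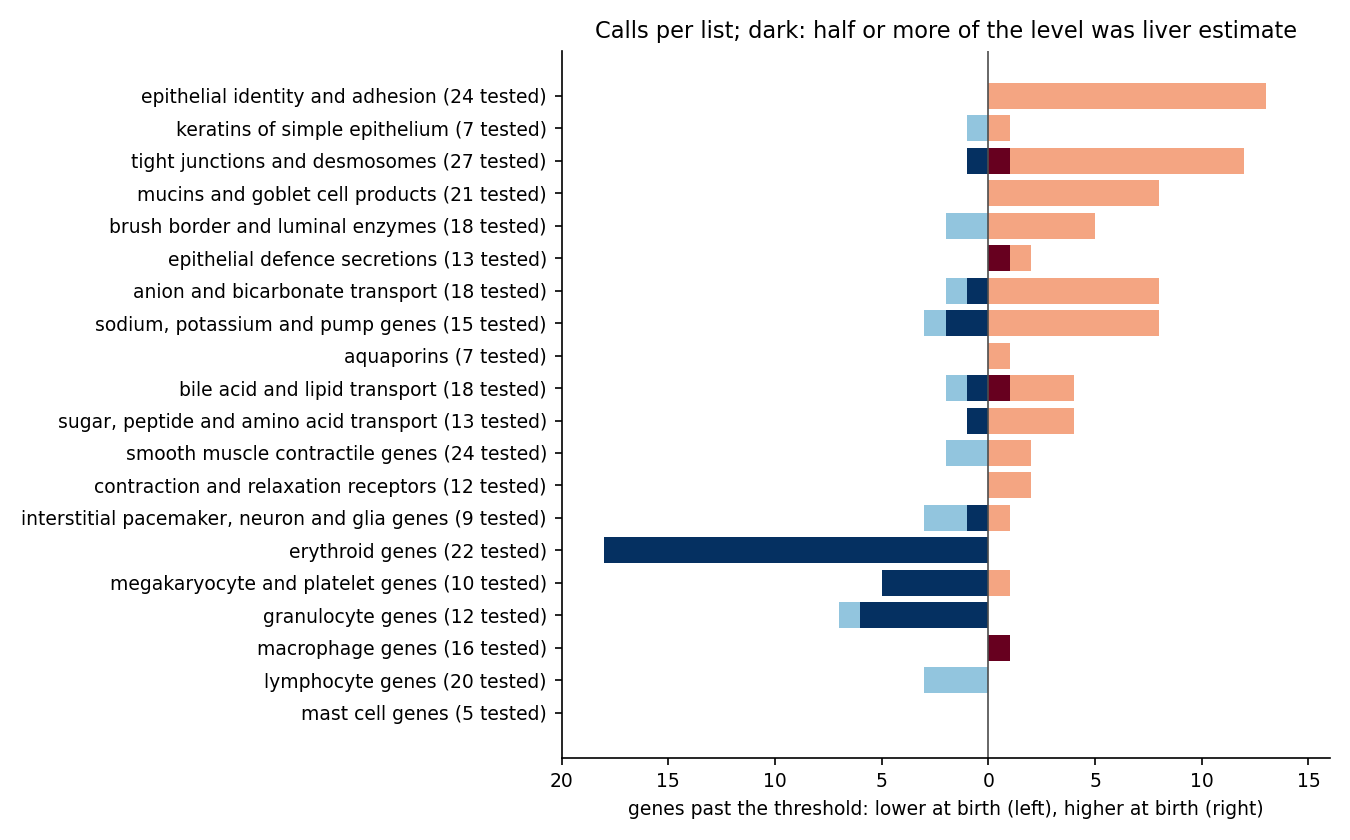
Number of genes called higher (right of 0) and lower (left of 0) at birth in each list of the epithelial, transport, muscle and blood families. The darker part is for genes in which the liver estimate is at least 50% of the level in the group where the gene is higher. Epithelial and transport bars lie mostly to the right and light; the erythroid bar lies to the left and is dark.

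The calls among genes of epithelial identity and adhesion were all toward higher levels at birth. Of 24 tested genes of epithelial identity and adhesion, 13 were called higher and 0 lower, and the median log2 difference was 2.05 against 0.13 over all genes. CDH1, the cell adhesion protein E-cadherin, had 1073 and 1049.5 CPM at birth, against 194, 194, 149 and 262 CPM in the fetal libraries. Both birth libraries were alike and above all fetal ones (log2 difference 2.41 ± 0.54, adjusted p = 0.02). KLF5, a transcription factor of proliferating epithelium, had 425 and 568 CPM at birth, against 63.8, 57.5, 71.2 and 132 CPM in the fetal libraries. At birth it was the highest again, and the second d120 library was the highest of the fetal ones (log2 difference 2.66 ± 0.66, adjusted p = 0.0255). PRSS8, a membrane protease that activates the epithelial sodium channel, had 92.8 and 151 CPM at birth, against 18.1, 17.1, 35.6 and 50.1 CPM in the fetal libraries. It was also higher without overlap (log2 difference 2.15 ± 0.46, adjusted p = 0.0184). MAL2, which carries proteins to the apical membrane, rose by 5.6-fold at birth, SPINT1, an inhibitor of membrane proteases, by 5.53-fold and GRHL1, a regulator of epithelial adhesion genes, by 10.9-fold. The liver estimate was 31.8% of the fetal level for CDH1, 4.48% for PRSS8 and 0.417% for KLF5. With it subtracted, 7 were called higher and 0 lower, with a median of 1.86, and 4 of the 13 were called also at the upper quartile of the liver ratios. In the fit without the CF d80 pair, the calls of GRHL1 and ST14 were lost without the second birth library. With all 12 libraries none of the 13 calls was made in all 6 fits that left out a WT library.

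Keratins did not share this direction. The 7 tested keratins of simple epithelium gave 1 higher and 1 lower, with 16.0% and 11.1% over all genes. KRT18, an intermediate filament protein of simple epithelia, fell (178 and 317 CPM at birth and 411, 348, 1097 and 1019 CPM in the fetal libraries, log2 difference -1.36 ± 0.44, adjusted p = 0.0495). Of its fetal level 18% lay in the liver estimate, and it missed the threshold with that subtracted (-1.54 ± 0.48, adjusted p = 0.0525). Its call was lost without the first birth library in the fit without the CF d80 pair. KRT19, KRT8 and KRT7 were not called, with log2 differences of -1.01, -0.43 and 0.33 (adjusted p = 0.0601, 0.426 and 0.497). KRT80, which is found in cells with desmosomes, had 4.64 and 4.38 CPM at birth, against 0.209, 0.175, 0 and 0 CPM in the fetal libraries. It was near 0 in all 4 fetal libraries with both d120 libraries at 0, and was called higher (adjusted p = 0.0152). The keratin median of 0.33 had the opposite sign with the liver estimate subtracted (-0.16).

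Nearly all calls among genes of tight junctions and desmosomes were toward higher levels. Of 27 tested, 12 were called higher and 1 lower, with a median log2 difference of 1.26. OCLN, the tight junction protein occludin, had 139 and 167 CPM at birth, against 30.7, 33.4, 15.1 and 24.3 CPM in the fetal libraries. Both birth libraries exceeded every fetal one (log2 difference 2.61 ± 0.43, adjusted p = 0.0108). F11R, a junctional adhesion molecule, rose by 4.58-fold, MARVELD2, which seals the corners where cells meet, by 6.53-fold, JUP, the desmosome protein plakoglobin, by 2.13-fold and DSC2, a desmosomal cadherin, by 7.31-fold. CLDN15, a claudin that lets cations pass between cells, went the other way, with 7.94 and 3.09 CPM at birth, against 40.7, 37.2, 29.8 and 17.9 CPM in the fetal libraries (log2 difference -2.47 ± 0.48, adjusted p = 0.0152). It had 71.9% of its fetal level and all of its birth level in the liver estimate, and what was left was called lower at the median share (adjusted p = 0.00634) but not at the upper quartile (adjusted p = 0.054). Of the genes called higher, CLDN1 alone had most of its birth level in the liver estimate (75.2%), and its groups overlapped. With the liver estimate subtracted, 9 were called higher and 1 lower. Of the 12 called higher as deposited, 8 were still called higher. None of the 13 calls was made in the fit of all 12 libraries without either d100 or either birth library. In the fit without the CF d80 pair, the call of CLDN1 was lost without the first birth library and that of CLDN3 without either d100 or either birth library.

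The calls among mucins and their glycosylation enzymes were all toward higher levels. Of 21 tested genes, 8 were called higher and 0 lower, with a median log2 difference of 2.24. MUC1, a transmembrane mucin of the apical surface, had 423 and 393 CPM at birth, against 38.8, 38.1, 46.5 and 72.7 CPM in the fetal libraries. The birth libraries lay well above the highest fetal one (log2 difference 3.09 ± 0.31, adjusted p = 0.00424). It was called whichever WT library was left out, also with all 12 libraries. MUC13, another transmembrane mucin, had 1187 and 1472 CPM at birth, against 45.6, 45.4, 20.8 and 61.7 CPM in the fetal libraries (log2 difference 4.94 ± 0.85, adjusted p = 0.0117). MUC15 rose by 24.6-fold and CREB3L1, a transcription factor of secretory cells, by 32.4-fold. The glycosyltransferases GALNT12 and GALNT4, which start mucin glycan chains, rose by 3.7-fold and 5.12-fold. For these 6 genes at most 31.1% of the fetal level, that of CREB3L1, lay in the liver estimate. With it subtracted, 5 were called higher and 0 lower. MUC1 alone was called, in the fit of all gallbladder libraries, without either d100 or either birth library. In the fit without the CF d80 pair, the call of GALNT4 was lost without the second birth library, and that of CLCA1 whichever of the 6 was left out.

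Brush border genes were called in both directions. Of 18 tested genes of the brush border and luminal surface, 5 were called higher and 2 lower, and the share called lower was that over all genes (11.1%). DPP4, a surface peptidase, had 427 and 537 CPM at birth, against 76.8, 75.1, 104 and 179 CPM in the fetal libraries and was higher without overlap (log2 difference 2.22 ± 0.47, adjusted p = 0.0178). EPS8, which organises actin in microvilli, rose by 2.55-fold, GGT1, which splits glutathione, by 4.73-fold and EZR, which links actin to the membrane, by 3.3-fold. ANPEP, another surface peptidase, fell (46.5 and 44.9 CPM at birth and 109, 102, 87.8 and 114 CPM in the fetal libraries, log2 difference -1.17 ± 0.24, adjusted p = 0.016). AMN, which with cubilin takes up vitamin B12 in the intestine, fell too (log2 difference -3.07 ± 0.75, adjusted p = 0.0244). Of the fetal level of ANPEP 36.8% lay in the liver estimate, and of that of AMN 34.3%. With it subtracted ANPEP was called lower (-1.33 ± 0.25, adjusted p = 0.0165) and AMN was not called (-3.42 ± 1.45, adjusted p = 0.111). For GGT1 the liver estimate was 51.2% of the fetal level, and its difference with the estimate subtracted was not called (2.63 ± 1.29, adjusted p = 0.155). In the fit of all gallbladder libraries, no brush border gene was called without either d100 or either birth library. Of 13 secreted defence genes, 2 were called higher and 0 lower, close to the share called higher over all genes (16.0%). They were CP and CCL28, a mucosal chemokine (2.91 and 6.28 CPM at birth and 0.269, 0.263, 0 and 0.0879 CPM in the fetal libraries, log2 difference 5.25 ± 1.16, adjusted p = 0.0198). CP, the copper carrier ceruloplasmin made by hepatocytes, had 1086 and 263 CPM at birth, against 40.2, 41.3, 19.3 and 14.6 CPM in the fetal libraries, and all of its birth level was covered by the liver estimate, which was 94.5% of its fetal level. PIGR, the receptor that carries IgA across epithelium, was not called (log2 difference 2.97 ± 1.0, adjusted p = 0.0536), with its second d120 library inside the birth range.

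CFTR had 13.1 and 33.1 CPM at birth, against 7.13, 8.53, 11.3 and 11.5 CPM in the fetal libraries. Both birth libraries were above the fetal ones, but the difference of 1.29 ± 0.62 did not pass the test (adjusted p = 0.132). Without the CF d80 pair its adjusted p was 0.0183. The liver estimate was 1.14% of its birth level and 11.9% of its fetal level.

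Most calls among anion and bicarbonate transport genes were toward higher levels at birth. Of 18 tested genes, 8 were called higher and 2 lower, with a median log2 difference of 1.5. SLC9A3, the apical sodium-proton exchanger that works beside chloride exchangers in salt uptake, had 734 and 445 CPM at birth, against 0.955, 1.72, 0.682 and 1.16 CPM in the fetal libraries. All 4 fetal libraries were below 2 CPM, and the birth libraries were far above them (log2 difference 9.04 ± 1.96, adjusted p = 0.0188). SLC12A2, the sodium-potassium-chloride cotransporter that loads secreting cells with chloride, had 218 and 402 CPM at birth, against 42.9, 43, 43.9 and 42.8 CPM in the fetal libraries. Its 4 fetal libraries were nearly equal and both birth libraries higher (log2 difference 2.84 ± 0.55, adjusted p = 0.015). CA4, a surface carbonic anhydrase, had 485 and 343 CPM at birth, against 16.2, 13.8, 285 and 169 CPM in the fetal libraries. It was called higher (log2 difference 2.83 ± 0.34, adjusted p = 0.00604), but its fetal level was uneven, with the d120 libraries far above the d100 ones, and against d120 alone it was not called (0.87 ± 0.41, adjusted p = 0.134).

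**Figure D3:**
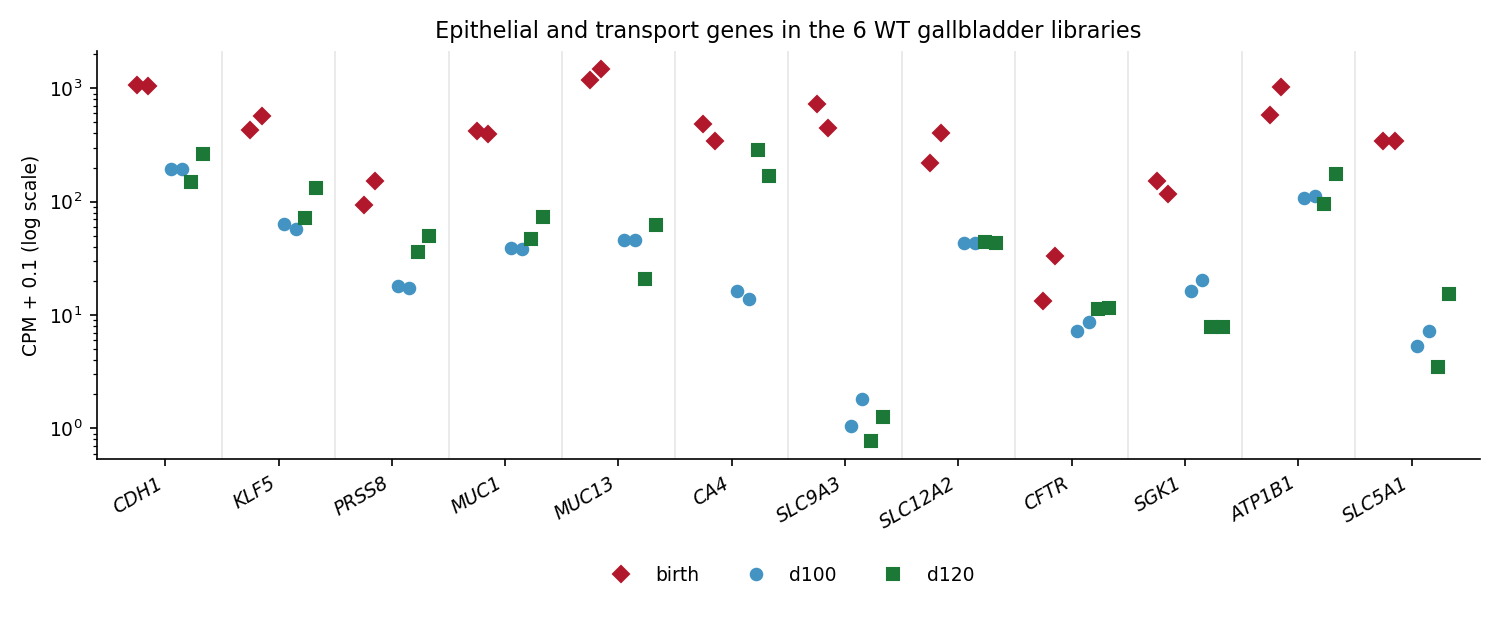
CPM on a log axis for 12 epithelial and transport genes, 1 column a gene, with birth libraries on the left, then d100 and d120, and 1 point a library. For MUC1, SLC9A3 and SLC5A1 both birth points lie above all fetal points; for CA4 the d120 points lie close to the birth points.

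A pair of anion transport genes was called lower. SLC26A6, an exchanger of chloride, bicarbonate and oxalate, had 2.25 and 4.12 CPM at birth, against 31.9, 33.3, 17.5 and 11.7 CPM in the fetal libraries (log2 difference -2.78 ± 0.49, adjusted p = 0.0126). As 90.7% of its fetal level lay in the liver estimate, little of it was left after subtraction, 1.84 and 4.01 CPM at birth against 0 and 0 CPM at d100 and 6.08 and 2.68 CPM at d120. The call was then in the opposite direction (adjusted p = 0.0194), although the groups overlapped. ANO1, a calcium-activated chloride channel, had 13.5 and 9.63 CPM at birth, against 35.7, 29, 36.8 and 23.6 CPM in the fetal libraries (log2 difference -1.44 ± 0.33, adjusted p = 0.0213). For ANO1 the liver estimate was 37.3% of the fetal level, and it was called lower with the estimate subtracted (-2.44 ± 0.44, adjusted p = 0.0142). Over the list, 8 were called higher and 1 lower after subtraction, with a median of 1.67. Of the 8 called higher as deposited, 6 were still called higher. At most 1 gene of the list was called in the fit of all gallbladder libraries without either d100 or either birth library. In the fit without the CF d80 pair, the call of SLC26A3, the chloride-bicarbonate exchanger of intestinal epithelium, was lost without either d100 or the first birth library. That of SLC9A3R1, a scaffold of apical transporters, was lost without either d100 or either birth library.

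Sodium and potassium transport genes were called higher more often than lower. Of 15 tested, 8 were called higher and 3 lower, with a median log2 difference of 1.88. SGK1, a kinase that keeps sodium channels and exchangers at the membrane, had 151 and 116 CPM at birth, against 16.1, 20.2, 7.73 and 7.8 CPM in the fetal libraries. The birth libraries were above all fetal ones (log2 difference 3.49 ± 0.34, adjusted p = 0.00402), and the call was made whichever WT library was left out, also with all 12 libraries. ATP1B1, a subunit of the sodium pump, had 587 and 1036 CPM at birth, against 107, 112, 95.4 and 176 CPM in the fetal libraries (log2 difference 2.73 ± 0.66, adjusted p = 0.0239). NR3C2, the receptor for aldosterone, rose by 3.67-fold and KCNE3, a potassium channel subunit of secreting epithelia, by 4.86-fold. SGK1 and FXYD3 alone were called in the fit of all gallbladder libraries without either d100 or either birth library. The calls of KCNE3 and of SCNN1B, a subunit of the epithelial sodium channel that was called lower, were lost without the first birth library in the fit without the CF d80 pair, and that of SCNN1B also without the second.

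FXYD3 and KCNN4 were called lower. FXYD3, which modulates the sodium pump, had 0.0642 and 0 CPM at birth, against 47.2, 47.6, 8.69 and 13.8 CPM in the fetal libraries. The birth libraries held 3 counts in all, and the liver estimate covered the whole fetal level. With the estimate subtracted FXYD3 was not called (adjusted p = 0.635). KCNN4, a calcium-activated potassium channel also present in red cells, had 0.299 and 1.09 CPM at birth, against 20.3, 18.2, 8.23 and 5.91 CPM in the fetal libraries (log2 difference -4.06 ± 0.84, adjusted p = 0.0169). Of its fetal level 68.5% lay in the liver estimate, and what was left was called lower (-3.1 ± 0.79, adjusted p = 0.0338), though not at the upper quartile of the liver ratios (adjusted p = 0.15). SGK1 also had 50.6% of its fetal level in the liver estimate, and was called higher with it subtracted (4.2 ± 0.45, adjusted p = 0.00366).

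Of 7 aquaporins, 1 was called higher and 0 lower, with 16.0% and 11.1% over all genes. AQP1, the water channel of bile duct and gallbladder epithelium and of red cells and vessels, had 65.2 and 38.5 CPM at birth, against 2.39, 3.77, 0 and 1.27 CPM in the fetal libraries (log2 difference 5.15 ± 1.25, adjusted p = 0.0239). Of its fetal level 11.9% lay in the liver estimate. AQP9, which carries glycerol into hepatocytes, was not called (log2 difference 2.69 ± 1.01, adjusted p = 0.0716), and its birth level was wholly covered by the liver estimate. AQP8 was not called either (log2 difference -1.12 ± 1.18, adjusted p = 0.479), with 90.1% of its fetal level in the liver estimate. The aquaporin median changed sign with the liver estimate subtracted at its median share, being -1.14 after and 1.3 before it. At the upper quartile of the liver ratios, with 6 aquaporins tested, the median was 0.51.

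Among 18 tested bile acid and lipid transport genes, 4 were called higher and 2 lower, with 16.0% and 11.1% over all genes. NPC1L1, which takes up cholesterol from the lumen, had 29.6 and 13.6 CPM at birth, against 0.806, 1.46, 0.455 and 0.681 CPM in the fetal libraries. It was near 1 CPM in the fetal libraries and higher at birth (log2 difference 4.74 ± 1.15, adjusted p = 0.0242). SLC10A2, the apical bile acid uptake carrier, had 6.14 and 2.96 CPM at birth, against 0, 0.0292, 0 and 0.154 CPM in the fetal libraries and was called higher (adjusted p = 0.0152), on a few fetal counts. SLCO2A1, a prostaglandin carrier, rose by 3.65-fold. SLC51A, a subunit of the basolateral bile acid exporter, had 0.963 and 0.175 CPM at birth, against 0.239, 0.35, 0 and 0 CPM in the fetal libraries, with overlap and with 52.4% of its birth level in the liver estimate. FABP6, which binds bile acids inside cells, had 0 and 0 CPM at birth, against 0.239, 0.321, 1.5 and 0.681 CPM in the fetal libraries and was called lower (adjusted p = 0.0275) at levels too low for a fold. ABCG2, an exporter with broad substrates, fell (27 and 14.9 CPM at birth and 138, 152, 79 and 59.5 CPM in the fetal libraries, log2 difference -2.26 ± 0.64, adjusted p = 0.0353), and the liver estimate was 80.7% of its fetal level. No gene of this list was called in the fit of all gallbladder libraries without either d100 or either birth library. In the fit without the CF d80 pair, the calls of SLCO2A1 and ABCG2 were lost without the second birth library, and that of SLC51A without the first birth or first d100 library.

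Of 13 tested sugar, peptide and amino acid carriers, 4 were called higher and 1 lower, with 16.0% and 11.1% over all genes. SLC5A1, the sodium-glucose cotransporter of absorbing epithelium, had 344 and 343 CPM at birth, against 5.25, 7.18, 3.41 and 15.4 CPM in the fetal libraries. The birth libraries were nearly equal and far above the highest fetal one (log2 difference 5.48 ± 1.22, adjusted p = 0.0199). SLC34A2, a sodium-phosphate cotransporter, had 4.81 and 30.7 CPM at birth, against 0, 0, 0 and 0.0659 CPM in the fetal libraries, with 3 fetal counts in all and a much higher level in the second birth library than in the first. SLC6A14, an amino acid carrier, had 1.5 and 29.2 CPM at birth, against 0.0896, 0.146, 0 and 0.11 CPM in the fetal libraries, uneven in the same way (log2 difference 7.41 ± 1.41, adjusted p = 0.0146). SLC1A1, a glutamate carrier, was also higher in the second birth library than in the first (7.51 and 32.1 CPM at birth and 4.27, 3.74, 4.87 and 3.73 CPM in the fetal libraries), and its call (log2 difference 2.26 ± 0.57, adjusted p = 0.0265) was lost without that library when the CF d80 pair was left out. SLC2A1, the glucose carrier of red cells and many fetal tissues, was called lower (24.2 and 35 CPM at birth and 545, 536, 90.8 and 129 CPM in the fetal libraries, log2 difference -3.04 ± 0.6, adjusted p = 0.0152). Of its fetal level 88.8% lay in the liver estimate, and subtraction left 23 and 34.7 CPM at birth against 84.8 and 61.4 CPM at d100 and 0 and 0 CPM at d120. SLC2A1 was then called higher (adjusted p = 0.00905), with the d120 libraries at 0 and the d100 libraries above birth. No carrier of this list was called in the fit of all gallbladder libraries without either d100 or either birth library.

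Few smooth muscle genes were called, and in both directions. Of 24 tested contractile genes, 2 were called higher and 2 lower, and the median log2 difference was -0.73 against 0.13 over all genes. Both counts were below the shares over all genes, 16.0% higher and 11.1% lower. FLNA, an actin crosslinker, had 145 and 191 CPM at birth, against 375, 342, 993 and 733 CPM in the fetal libraries. The birth libraries were the lowest and the d120 libraries the highest (log2 difference -1.73 ± 0.37, adjusted p = 0.0183). PGM5, an adhesion protein of muscle, had 20.1 and 41.2 CPM at birth, against 77.7, 72.3, 260.1 and 187 CPM in the fetal libraries, with the same order (log2 difference -2.08 ± 0.46, adjusted p = 0.0193). HSPB6, a small heat shock protein of muscle, was called higher at low levels (2.29 and 2.04 CPM at birth and 0.298, 0.496, 0.227 and 0.0879 CPM in the fetal libraries, log2 difference 3.13 ± 0.81, adjusted p = 0.0281). SYNM, an intermediate filament protein of muscle, was higher by a smaller step (57.1 and 49.8 CPM at birth and 20.1, 21.8, 44.2 and 42.2 CPM in the fetal libraries, log2 difference 0.83 ± 0.25, adjusted p = 0.0411). The count of calls depended on the libraries fitted: WT libraries alone gave 3 higher and 12 lower, all but the CF d80 pair gave 3 higher and 6 lower, and with all 12 libraries none was made without either d100 or either birth library.

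TPM2, ACTA2 and DES, which define muscle, were not called. TPM2, a tropomyosin, had 98.8 and 147 CPM at birth, against 487, 405, 5088 and 1913 CPM in the fetal libraries. The d120 libraries were far above the d100 and birth ones, and the difference did not pass (log2 difference -3.34 ± 1.28, adjusted p = 0.076). Against d120 alone it was called lower (-4.83 ± 1.45, adjusted p = 0.043). ACTA2, smooth muscle actin, named outside the rule as a defining marker, had 184 and 271 CPM at birth, against 433, 422, 903 and 1333 CPM in the fetal libraries. Its birth libraries were below all fetal ones without passing the test (log2 difference -1.6 ± 0.87, adjusted p = 0.176), and without the CF d80 pair its adjusted p was 0.0333. DES, the muscle intermediate filament desmin, named for the same reason, had 97.4 and 167 CPM at birth, against 203, 188, 1008 and 482 CPM in the fetal libraries (log2 difference -1.53 ± 0.88, adjusted p = 0.199). The liver estimate was 9.68% of the fetal level of FLNA, 5.24% of that of PGM5, 5.95% of that of HSPB6 and 24.3% of that of SYNM. With it subtracted, FLNA and PGM5 were still called lower, and HSPB6 and SYNM missed the threshold (adjusted p = 0.0613 and 0.0506). The list median was -1.26 with the liver estimate subtracted and 1.4 when scaled on genes low in liver, of which this list held 3.

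**Figure D4:**
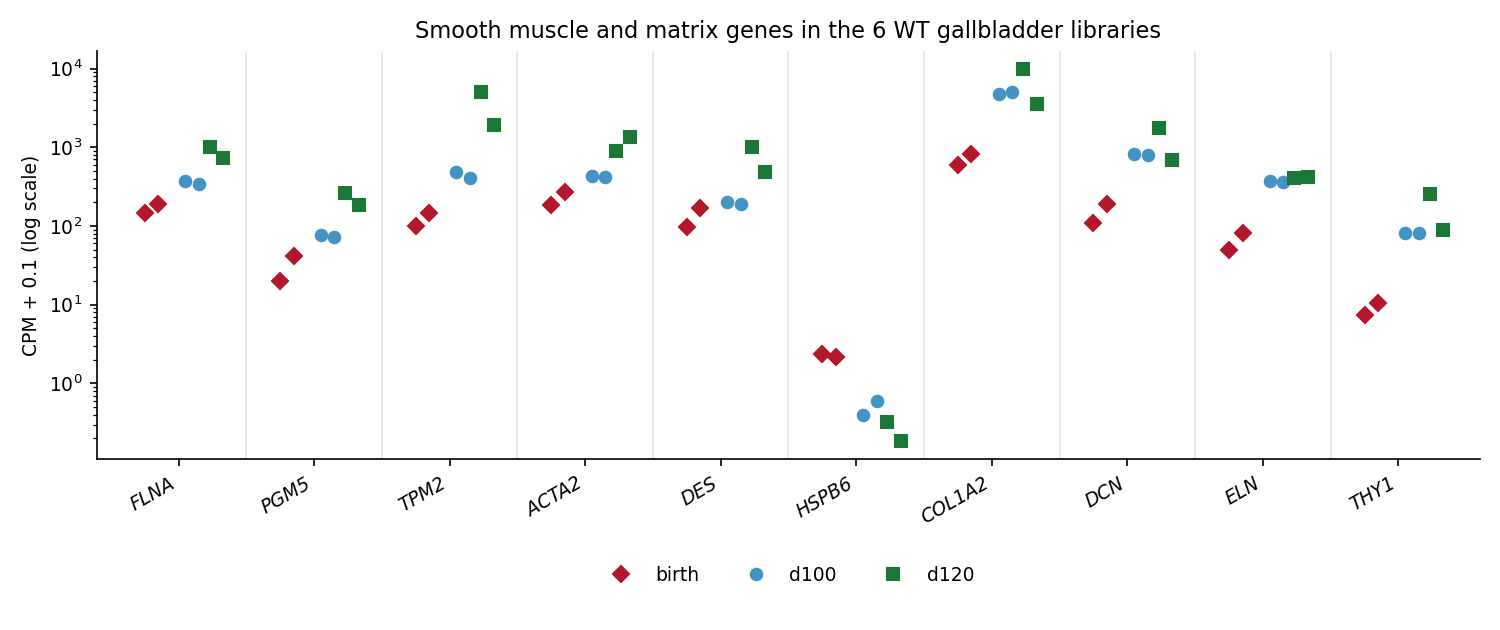
CPM on a log axis for 10 muscle and matrix genes, 1 column a gene, with birth libraries on the left, then d100 and d120, and 1 point a library. The d120 points are the highest for FLNA, PGM5, TPM2, ACTA2 and DES, and the birth points the lowest for COL1A2, DCN, ELN and THY1.

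Receptors that set the tone of the muscle gave 2 higher and 0 lower of 12 tested, close to the share called higher over all genes (16.0%). CHRM3, the muscarinic receptor that contracts the gallbladder, had 7.17 and 14.9 CPM at birth, against 2.21, 1.66, 0.364 and 3.82 CPM in the fetal libraries (log2 difference 2.45 ± 0.73, adjusted p = 0.0393). Its call was lost without either d100 or the second birth library in the fit without the CF d80 pair. VIPR1, a receptor of the relaxing peptide VIP, had 2.12 and 1.01 CPM at birth, against 0.537, 0.73, 0 and 0 CPM in the fetal libraries, with 0 in both d120 libraries (adjusted p = 0.042), and its call was lost without the first birth library in that fit. For CHRM3 the liver estimate was 35.5% of the fetal level, and the gene was not called with it subtracted (2.43 ± 1.14, adjusted p = 0.141). It covered all of the fetal and 46.5% of the birth level of VIPR1, which was still called at the median share (adjusted p = 0.0411) but not at the upper quartile (adjusted p = 0.0517). Of 9 genes of nerve, glia and pacemaker cells, 1 was called higher and 3 lower. STMN2, a neuronal tubulin regulator, had 0.0214 and 0.0194 CPM at birth, against 4.63, 3.8, 3.77 and 0.176 CPM in the fetal libraries, with the second d120 library close to birth and 2 counts in all at birth (adjusted p = 0.0167). S100B, a glial calcium-binding protein, fell (log2 difference -2.26 ± 0.43, adjusted p = 0.0147) with 61.1% of its fetal level in the liver estimate. RET, the receptor of enteric nerve precursors, was called higher, but its d120 libraries were as high as birth (21.6 and 45.4 CPM at birth and 3.22, 1.96, 22 and 42.9 CPM in the fetal libraries, log2 difference 1.87 ± 0.42, adjusted p = 0.0203).

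Red cell genes had the largest median difference of the 27 lists, and most of their fetal level was in the liver estimate. Of 22 tested erythroid genes, 0 were called higher and 18 lower, with a median log2 difference of -7.7. KLF1, the red cell transcription factor, had 0.214 and 0.175 CPM at birth, against 246, 222, 97.4 and 66.3 CPM in the fetal libraries. The birth libraries were close to 0, and the d100 libraries were the highest (log2 difference -9.46 ± 0.82, adjusted p = 0.0036). ALAS2, the first enzyme of haem synthesis in red cells, had 1.09 and 0.117 CPM at birth, against 1076, 1087, 446 and 322 CPM in the fetal libraries (log2 difference -10.06 ± 1.12, adjusted p = 0.00545). GATA1, which directs red cell and platelet precursors, had 0.15 and 0.117 CPM at birth, against 181, 189, 39.8 and 39.3 CPM in the fetal libraries (log2 difference -9.3 ± 0.89, adjusted p = 0.00402). NFE2, a transcription factor of red cell and platelet precursors, EPOR, the erythropoietin receptor, and HBM, a globin gene, followed the same order (-8.93, -7.53 and -11.81 on the log2 scale, adjusted p = 0.00402, 0.00545 and 0.00545).

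KLF1 and ALAS2 had lower levels in term liver than in fetal liver too. KLF1 stood in WT liver at 0.0593 CPM at term, against 229 CPM at d100 and 206 CPM at d120, and ALAS2 at 0.401 CPM, against 1022 and 1166 CPM. The median erythroid gene in the d100 gallbladders stood at 81.3% and 84.0% of its level in d100 liver, a little above the hepatocyte shares of 68.0% and 72.0%. In the d120 gallbladders it stood at 17.0% and 20.3%, a little below the hepatocyte shares. The liver estimate was 93.5% of the fetal level of KLF1, 96% of that of ALAS2 and 88.5% of that of GATA1. All 18 genes called lower had at least 50% of their fetal level in the liver estimate. With it subtracted, 0 were called higher and 1 lower and the median was -1.12; the gene still called was NFE2 (-7.02 ± 1.93, adjusted p = 0.0396). At the upper quartile of the liver ratios 2 were called higher and 0 lower with a median of 0.27, and NFE2 was not called (adjusted p = 0.974). In a fit with the hepatocyte level as a covariate, 18 were still called lower, with a median of -7.39. That fit cannot decide how much of these genes was liver RNA. It follows the hepatocyte level alone, while KLF1 and ALAS2 differed between fetal and term liver. Blood in the gallbladder's own vessels and blood cells of adjoining liver cannot be told apart in these data. In the fit without the CF d80 pair, only TMOD1 lost its call, without the second birth library. With all 12 libraries, KLF1, GATA1, ALAS2, HBM, AHSP, RHAG and HEMGN were called whichever WT library was left out.

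Most calls among genes of megakaryocytes and granulocytes were toward lower levels too. Of 10 megakaryocyte and platelet genes, 1 was called higher and 5 lower. PF4, a platelet chemokine, had 0.449 and 0.117 CPM at birth, against 146, 138, 10.7 and 12.6 CPM in the fetal libraries (log2 difference -7.17 ± 0.58, adjusted p = 0.00282), and the liver estimate covered all of it in both groups. TUBB1, the tubulin of platelets, had 0.342 and 0.37 CPM at birth, against 50.7, 51.2, 3.68 and 4.33 CPM in the fetal libraries (log2 difference -5.32 ± 0.43, adjusted p = 0.00282), and with the liver estimate subtracted, which left 0 in all 4 fetal libraries, it was called higher (adjusted p = 0.0391), though not at the upper quartile (adjusted p = 0.253). ITGA2B, a subunit of the fibrinogen receptor of platelets, fell (log2 difference -2.5 ± 0.41, adjusted p = 0.0109) with 72.6% in the liver estimate. F2RL2, a thrombin receptor, was the gene called higher (14.1 and 9.78 CPM at birth and 0.507, 1.43, 1.91 and 5.03 CPM in the fetal libraries, log2 difference 2.69 ± 0.71, adjusted p = 0.0291), a call lost without the first birth library when the CF d80 pair was left out. Of 12 granulocyte genes, 0 were called higher and 7 lower, with a median of -4.32. MPO, the peroxidase of neutrophil granules, had 0.235 and 0.0389 CPM at birth, against 31.6, 30.8, 17.7 and 8.0 CPM in the fetal libraries (log2 difference -7.18 ± 1.14, adjusted p = 0.00982). S100A8, a calcium-binding protein of neutrophils, had 1.93 and 0.331 CPM at birth, against 45, 34, 66.7 and 55.1 CPM in the fetal libraries (log2 difference -5.44 ± 1.33, adjusted p = 0.0242), with 49% of its fetal level in the liver estimate, below the share of every other called granulocyte gene. With the liver estimate subtracted, the log2 difference of S100A8 had the opposite sign, at the median share and at the upper quartile of the liver ratios. None of the 7 genes called lower, S100A8 included, was called after subtraction at the median share. Over the list, 1 was then called higher, a gene not called as deposited, and 0 lower. With the hepatocyte level as a covariate 7 were called lower (median -4.66), but that fit takes no account of how granulocyte RNA in liver differs by stage. No granulocyte gene was called in the fit of all gallbladder libraries without either birth library. The call of PRTN3 was lost without the second birth library when the CF d80 pair was left out.

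**Figure D5:**
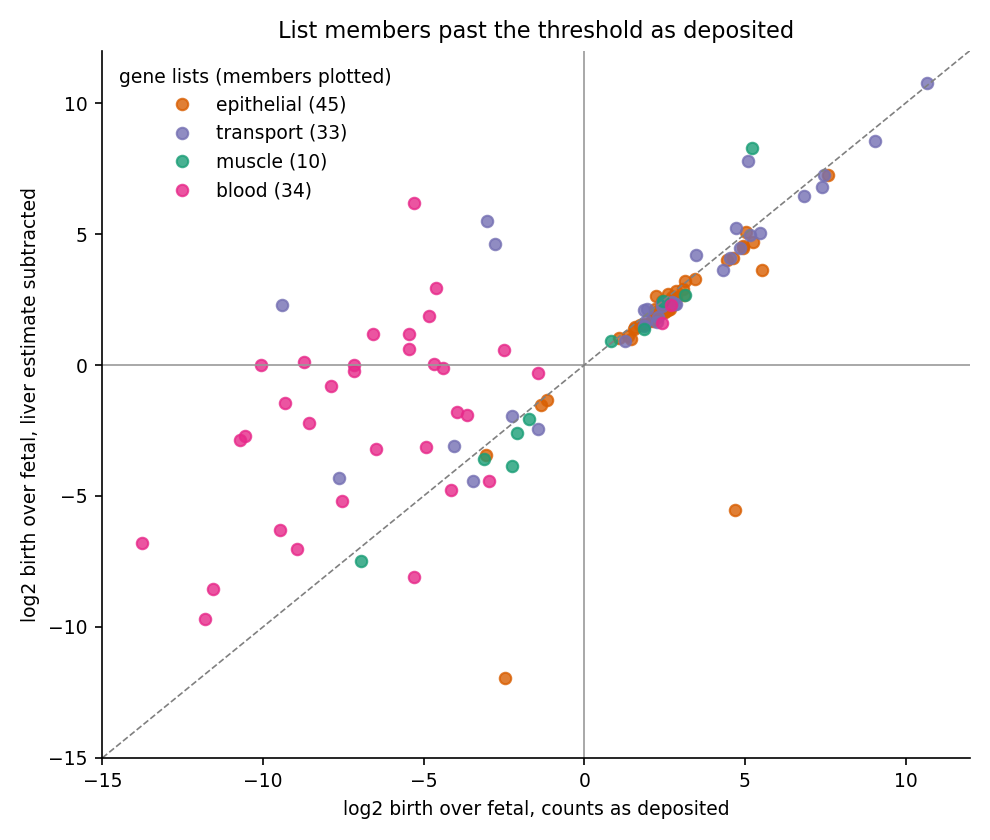
Log2 difference of birth over fetal as deposited (horizontal axis) and with the liver estimate subtracted (vertical axis), coloured by family. Points are called members of the epithelial, transport, muscle and blood lists that had a value after subtraction. The diagonal marks equal values. Epithelial, transport and muscle points lie mostly near the diagonal, and blood points with large negative values lie mostly above it.

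Macrophage, lymphocyte and mast cell lists held few calls with all 12 libraries. The shares over all genes were 16.0% higher and 11.1% lower. Of 16 macrophage genes, 1 was called higher and 0 lower, with a median of -0.63. WT libraries alone gave 2 higher and 7 lower, and all but the CF d80 pair gave 1 higher and 5 lower. CD14, a receptor for bacterial lipopolysaccharide also made by hepatocytes, had 14.1 and 4.55 CPM at birth, against 2.27, 1.66, 1.68 and 1.36 CPM in the fetal libraries (log2 difference 2.43 ± 0.6, adjusted p = 0.0255). At birth 92.4% of its level lay in the liver estimate, and it was not called with the estimate subtracted (1.62 ± 1.09, adjusted p = 0.279). AIF1, a macrophage calcium-binding protein, had 22.3 and 21.1 CPM at birth, against 65.8, 63.7, 85.3 and 84 CPM in the fetal libraries without being called (log2 difference -1.77 ± 0.8, adjusted p = 0.114). Of 20 lymphocyte genes, 0 were called higher and 3 lower. CD8B, a coreceptor of T cells, had 1.24 and 1.87 CPM at birth, against 9.55, 10.4, 11.1 and 18.9 CPM in the fetal libraries (log2 difference -2.97 ± 0.77, adjusted p = 0.0276), and missed the threshold after subtraction (-4.41 ± 1.5, adjusted p = 0.0648). CD79B was called with overlapping groups (0.0214 and 0.0194 CPM at birth and 2.09, 2.48, 0 and 0.681 CPM in the fetal libraries), a call lost without the second d120 or either birth library when the CF d80 pair was left out. JCHAIN, which joins secreted antibodies into polymers, was not called (5.07 and 10.3 CPM at birth and 3.01, 3.3, 1.55 and 4.0 CPM in the fetal libraries, log2 difference 1.38 ± 0.53, adjusted p = 0.077). None of the 5 mast cell genes was called by edgeR, 1 had an unadjusted p under 0.05, and the DESeq2 Wald test called 0 higher and 0 lower.

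Most connective tissue genes were called lower, with little of the level of those named in the liver estimate. Of 17 fibroblast and matrix genes, 0 were called higher and 10 lower, with a median log2 difference of -2.02. COL1A2, a chain of type I collagen, had 595 and 818 CPM at birth, against 4788, 5045, 9772 and 3511 CPM in the fetal libraries. Both birth libraries were far below the fetal ones (log2 difference -3.02 ± 0.83, adjusted p = 0.0326). DCN, the small proteoglycan decorin, had 110.1 and 191 CPM at birth, against 819.5, 800.4, 1775 and 682 CPM in the fetal libraries (log2 difference -2.73 ± 0.7, adjusted p = 0.0277). ELN, elastin, had 49.8 and 82.2 CPM at birth, against 369.8, 361, 403 and 414 CPM in the fetal libraries (log2 difference -2.55 ± 0.64, adjusted p = 0.0259). THY1, a surface marker of fibroblasts, fell to 7.23 and 10.4 CPM at birth, against at least 80.2 CPM in the fetal libraries (log2 difference -3.74 ± 0.75, adjusted p = 0.016). COL14A1 and COL6A3, which bind collagen fibres and cells, had log2 differences of -2.78 and -2.02 (adjusted p = 0.00886 and 0.0246). For these 6 genes at most 7.39% of the fetal level, that of COL14A1, lay in the liver estimate, and 0 were called higher and 12 lower with it subtracted. With all 12 libraries, none of the 10 calls was made without either birth library and 1 without either d100 library. The calls of ELN and COL1A1 were lost without the first birth library in the fit without the CF d80 pair.

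Most cell cycle genes were called lower, with much of their fetal level in the liver estimate. Of 22 tested, 0 were called higher and 17 lower, with a median log2 difference of -1.97. MKI67, the proliferation marker Ki-67, had 24.3 and 31.2 CPM at birth, against 157, 197, 11.2 and 15.2 CPM in the fetal libraries. The groups overlapped, with the d100 libraries highest and the d120 libraries lowest, and it was not called (log2 difference -0.8 ± 0.93, adjusted p = 0.518). Of its fetal level 75.3% lay in the liver estimate, and subtraction left 19.6 and 29.8 CPM at birth against 29.1 and 64.7 CPM at d100 and 0 and 0 CPM at d120. It was then called higher (adjusted p = 0.041), with the d120 libraries at 0 and the d100 libraries overlapping birth. MCM2, a helicase subunit of DNA replication, had 11.5 and 19.4 CPM at birth, against 167, 158, 49.4 and 76.4 CPM in the fetal libraries (log2 difference -2.71 ± 0.36, adjusted p = 0.00636). BUB1 and PLK1, mitotic kinases, fell too (-2.56 and -2.25 on the log2 scale, adjusted p = 0.00866 and 0.00998). The liver estimate was 59.5% of the fetal level for MCM2, 69.8% for BUB1 and 67.4% for PLK1. With it subtracted, 2 were called higher and 3 lower and the median was -0.87. MCM2, BUB1 and PLK1 were the 3 genes still called lower (-2.28, -1.68 and -1.54), and none of the 3 was called at the upper quartile of the liver ratios (adjusted p = 0.357, 0.621 and 0.112). With all 12 libraries, 0 cell cycle genes were called lower without the first birth library, 1 without the second and 2 without either d100 library. The calls of MCM5, MCM3 and TOP2A were lost without the first birth library in the fit without the CF d80 pair.

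Of 12 tested fetal growth genes, 1 was called higher and 7 lower. DLK1, a membrane protein of fetal precursor cells, had 24.7 and 39.9 CPM at birth, against 1187, 1013, 3607 and 1063 CPM in the fetal libraries (log2 difference -5.63 ± 1.05, adjusted p = 0.0141). Of its fetal level 19.3% lay in the liver estimate, the lowest share among those called lower, and DLK1 was called lower with it subtracted (-5.87 ± 1.12, adjusted p = 0.0165). MEST, an imprinted gene of mesoderm, had 11.6 and 10.6 CPM at birth, against 290.4, 289.5, 117 and 95.9 CPM in the fetal libraries (log2 difference -3.99 ± 0.69, adjusted p = 0.0117), with 69.5% in the liver estimate and a call after subtraction (-3.45 ± 0.68, adjusted p = 0.0179). PLAGL1, an imprinted transcription factor, had 6.67 and 8.42 CPM at birth, against 184, 201, 17.3 and 23.8 CPM in the fetal libraries (log2 difference -3.06 ± 0.33, adjusted p = 0.00545), and was called in the opposite direction after subtraction (adjusted p = 0.0127), which left 4.85 and 7.89 CPM at birth against 72.9 and 86.4 CPM at d100 and 0 and 0 CPM at d120. AFP, the fetal serum protein of hepatocytes, was lower at birth (log2 difference -7.35 ± 2.01, adjusted p = 0.0318), with 73% in the liver estimate and no call after subtraction (-7.88 ± 2.9, adjusted p = 0.0789). IGF2BP2, an RNA-binding protein, was the gene called higher (28.3 and 18.4 CPM at birth and 1.28, 2.22, 0 and 1.85 CPM in the fetal libraries, log2 difference 4.16 ± 1.34, adjusted p = 0.0475). The calls of GPC3, AFP and LIN28B were lost without either birth library in the fit without the CF d80 pair.

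Over all genes, several of the largest increases lay wholly in the liver estimate. Among the 10 largest increases with no overlap were ACSM1 and ACSM2B, which activate medium-chain fatty acids, CYP2A6, a drug-metabolising enzyme, and UGT1A3, UGT1A6 and UGT2B7, which attach glucuronic acid. For all 6 the liver estimate covered the whole birth level. ACSM1 had 255 and 42.1 CPM at birth, against 0, 0, 0 and 0.0879 CPM in the fetal libraries and CYP2A6 27.4 and 2.74 CPM at birth and 0, 0, 0 and 0 CPM in the fetal libraries, and WT liver at term held 891 CPM of ACSM1 and 158 CPM of CYP2A6. UGT1A genes share exons, so the split of reads between UGT1A3 and UGT1A6 is uncertain. The other 4 were NOX1, SLC34A2, DAO and ARSJ. NOX1, an oxidase that makes superoxide in epithelium of the colon, had 34.7 and 47.9 CPM at birth, against 0, 0.146, 0 and 0 CPM in the fetal libraries (adjusted p = 0.0114) and none of it lay in the liver estimate. Among the 10 largest decreases, 8 were erythroid genes or followed them: EPB42, HBM, AHSP, HEMGN, RHAG, ALAS2, TMCC2 and KLF1, with FXYD3 and KRT17 besides. EPB42 was at 0 in both birth libraries and at least 2020-fold lower than in fetal libraries, by the floor of 3 counts over the birth pair. KRT17, a keratin of basal and stressed epithelium, had 0 and 0 CPM at birth, against 25.3, 22.8, 56.9 and 2.5 CPM in the fetal libraries. It was at least 879-fold lower at birth by the same floor, with adjusted p = 0.0164 and none of its fetal level in the liver estimate.

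The 10 largest increases and decreases among genes called the same way with and without the liver estimate were partly other genes. Higher were NOX1, SLC34A2, DAO, ARSJ, SLC9A3, ITGAX, PLXNA1, ARGFX, CEACAM20 and TNFSF15. CEACAM20, an adhesion molecule of the intestinal brush border, had 63.1 and 45.2 CPM at birth, against 0.0896, 0.146, 0 and 0.351 CPM in the fetal libraries (log2 difference 8.42 ± 1.65, adjusted p = 0.0152). TNFSF15, a cytokine of the tumour necrosis factor family, had 5.6 and 4.06 CPM at birth, against 0.0597, 0.117, 0 and 0 CPM in the fetal libraries (adjusted p = 0.0232). ITGAX, the leukocyte integrin chain CD11c, had 7.1 and 7.45 CPM at birth, against 0.0299, 0.117, 0 and 0 CPM in the fetal libraries, on 5 fetal counts. Lower were KRT17, NFE2, HBQ1, MATN4, STMN2, MATN1, DUSP26, OTOR, NKX6-3 and VAT1L. MATN4 and MATN1, matrix proteins of cartilage and other connective tissue, had log2 differences of -6.96 and -6.75 (adjusted p = 0.00604 and 0.0117). NKX6-3, a transcription factor of the stomach lining in mice, had 0.0642 and 0.0194 CPM at birth, against 8.81, 6.13, 2.5 and 1.82 CPM in the fetal libraries (log2 difference -6.51 ± 1.05, adjusted p = 0.0103). These genes were not free of liver RNA. NFE2, HBQ1, MATN1, DUSP26 and NKX6-3 had 83%, 60.1%, 50.2%, 70.5% and 74.8% of their fetal level in the liver estimate and were not called at the upper quartile of the liver ratios, and DAO had 57.6% of its birth level in the estimate. Over all genes, 31 called lower as deposited were called higher after subtraction; SLC2A1, SLC26A6, TUBB1, PLAGL1 and the haem synthesis genes FECH and CPOX were among them. GK, glycerol kinase, was the 1 gene that went the other way (adjusted p = 0.0182 as deposited and 0.00509 after subtraction, which left 0 at birth).

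The liver shares at d120 (24.0% and 23.1%) lay between those of the birth libraries, and the d100 shares above both. Against d120 alone, 2428 genes were called higher at birth (13.0%) and 2127 lower (11.4%) of 18717. The total of 4555 became 17 without the first d120 library, 4 without the first birth library and 0 without the second. Against d100 alone, 478 were called higher (2.55%) and 913 lower (4.88%), and the total of 1391 became 26 to 77 without either d100 or either birth library. Epithelial identity gave 4 higher and 0 lower against d120 and 2 higher and 0 lower against d100, with medians of 1.62 and 2.33. SLC9A3 was called higher against d120 (9.29 ± 2.73, adjusted p = 0.0414), as were SLC5A1 (5.18 ± 1.61, adjusted p = 0.0467), MUC13 (5.01 ± 1.14, adjusted p = 0.0267) and SGK1 (4.1 ± 0.46, adjusted p = 0.0122). Smooth muscle gave 1 higher and 5 lower against d120 and 1 higher and 0 lower against d100. FLNA and PGM5 were called lower against d120 (-2.36 ± 0.41, adjusted p = 0.0184 and -2.87 ± 0.51, adjusted p = 0.0189). Erythroid genes gave 0 higher and 16 lower against d120 and 0 higher and 18 lower against d100. Cell cycle genes gave 0 higher and 8 lower against d120, with a median of -1.1, and 0 higher and 19 lower against d100, with a median of -2.83. Both comparisons share the birth libraries, so their calls are not independent.

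Within fetal life, few genes were called. Between d120 and d100, edgeR called 2 genes higher at d120 (0.0107%) and 5 lower (0.0267%), with an unadjusted p under 0.05 for 3568 genes. The DESeq2 Wald test called 717 higher (3.07%) and 1424 lower (6.09%). Without the second d120 library edgeR called 151 higher and 1128 lower, and without either d100 library none. The genes called higher were CA4 and CFAP45, a protein of cilia. CA4 had 285 and 169 CPM at d120, against 16.2 and 13.8 CPM at d100 (3.92 ± 0.46, adjusted p = 0.0449). CFAP45 had 77.3 and 95.4 CPM at d120, against 14.1 and 11.9 CPM at d100 (2.74 ± 0.33, adjusted p = 0.0449). The liver estimate was under 1% of the fetal level of both. The genes called lower were PLAGL1, TUBB1 and 3 genes known by a locus number alone. TUBB1 had 3.68 and 4.33 CPM at d120, against 50.7 and 51.2 CPM at d100 (-3.67 ± 0.41, adjusted p = 0.0449), and PLAGL1 followed (-3.23 ± 0.35, adjusted p = 0.0449). WT liver held 17.2 CPM of TUBB1 at d120 and 67.2 CPM at d100, and 129 and 113 CPM of PLAGL1. Subtracting the liver estimate left nothing of TUBB1 in any fetal library, and left PLAGL1 in the d100 libraries alone. The muscle gene TPM2 had 5088 and 1913 CPM at d120, against 487 and 405 CPM at d100, and was not called (2.97 ± 1.33, adjusted p = 0.266).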

How the data were processed

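RNA of WT gallbladder at birth, d100 and d120 was sequenced, 2 libraries a stage. The submitters' processing notes name STAR 2.7.9a and Salmon 1.10.1 and 1.9.0; the sources used here give no genome build or annotation. The values used are estimated counts per gene as deposited, per the file headers of the merged gene tables, 1 for gallbladder and 1 for liver; they were rounded to whole numbers. Counts of all 12 gallbladder libraries were fitted with edgeR 4.0.16 in R 4.3.3 (TMM factors, filterByExpr, quasi-likelihood test, 1 mean per genotype and stage, two-sided). CPM uses TMM-scaled totals. Adjusted p-values are Benjamini-Hochberg over all genes tested, and the threshold is 0.05. The script was tested on simulated data.

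The liver estimate is a library's share times the mean WT liver CPM of the stage. Its percent of a group's level never exceeds the level itself. Alternatives were DESeq2 1.42.0 (size factors, Wald test), no filter, WT libraries alone, each WT library left out, other liver corrections and the fit without the CF d80 pair.

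Of 460 members in 27 lists, 434 matched the tables by symbol and 421 were tested. The libraries and lists were chosen with earlier results of these data known. For each list the 6 members with the smallest p could be named, besides CFTR, ALB, MKI67 and the 10 largest changes in each direction; genes named as exceptions, or as markers outside this rule, were chosen after their values were seen. Some genes that this rule names are not reported here. A fold against a group at 0 in all its libraries is a bound from a floor of 3 counts.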

Additional observations from a re-analysis of the deposited data

How the results depend on the processing

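The count of genes called at birth against fetal, 5074, became 8105 with the DESeq2 Wald test, 8608 with WT libraries alone, 9343 without the CF d80 pair (chosen after seeing the data), 3167 with the liver estimate subtracted, 2389 with the upper quartile of the liver ratios as the share, and 394 over genes low in liver. Leaving out 1 WT library gave 41 to 5695. DESeq2 size factors, no filter and a split of the WT libraries into 2 groups kept it within 1.5 times. Against d120, 4555 became 8088 with the Wald test and 0 to 4597 with a library left out. Against d100, 1391 became 4705 with the Wald test, 736 with the liver estimate subtracted and 26 to 77 with a library left out. The 7 calls at d120 against d100 became 21 with DESeq2 size factors, 21 with no filter, 2141 with the Wald test, 491 with the liver estimate subtracted and 0 to 1279 with a library left out. After subtraction, leave-outs gave 124 to 5119. On genes low in liver, 394 became 260 under the limit of 0.5 CPM and 0 to 661 with a library left out. Without the CF d80 pair, leave-outs gave 5536 to 11367. The cause of these moves was not tested.

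Of 161 named genes, 130 lost their call without the first birth library and 120 without the second, 117 and 115 without a d100 library, 60 without the first d120 library and 13 without the second. The 161 include genes that were not called with all libraries, so the remaining genes are not all calls that were kept. No named gene that was called with all libraries or in these fits changed direction between them. Changes of sign with the liver estimate subtracted were counted for named genes called as deposited, after subtraction or in both. The sign of the log2 difference changed at the median share for 16 of these genes and at the upper quartile for 20. The log2 differences, at the median and then the upper quartile, were 0.013 and 7.67 for ALAS2, -5.55 and -4.38 for CP, 5.4 and 5.43 for CPOX, 5.2 and 5.27 for FECH, 2.29 and 2.29 for FXYD3, -10.05 and -10.02 for GK, 5.04 and 5.34 for GPC3, 0.58 and 4.65 for ITGA2B. They were 5.6 and 5.67 for MKI67, 3.26 and 3.24 for PLAGL1, 1.18 and 1.13 for S100A8, 4.61 and 9.96 for SLC26A6, 5.51 and 5.86 for SLC2A1, 6.19 and 6.02 for TUBB1, -3.58 and -3.63 for UGT1A3 and -6.6 and -6.62 for UGT2B7. At the upper quartile alone they were 6.76 for AHSP, -3.52 for CD14, 2.34 for KLF1 and 0.24 for TMOD1. Several of these were not called at the median share, ALAS2, FXYD3 and UGT1A3 among them. The values are large where little was left of a gene in 1 group or stage, and are no measure of size there.

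No paired analysis was possible because the labels give these libraries no replicate numbers that are shared between stages. Library totals of the WT libraries ran from 32374693 to 54443213 estimated counts, lowest in the first d120 library. Each stage had 2 libraries, and whether depth or the number of libraries limits these results more was not tested. The liver shares rest on 28 genes and on liver of other samples, and the birth shares on term liver.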

Other observations

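Lists outside the epithelial, transport, muscle and blood families also held calls. Over all genes tested, 16.0% were called higher and 11.1% lower. Of 5 tested mesothelial genes, 1 was called higher and 2 lower. MSLN, the surface protein mesothelin of the serosa, had 747 and 1342 CPM at birth, against 95.8, 83.1, 320.1 and 260.4 CPM in the fetal libraries. Its birth libraries were above all fetal ones, and the d120 libraries lay above the d100 ones (log2 difference 2.7 ± 0.54, adjusted p = 0.0161). WT1, a transcription factor of the mesothelium, went the other way, with 0.428 and 0.194 CPM at birth, against 11, 9.58, 11.1 and 1.6 CPM in the fetal libraries (log2 difference -4.68 ± 0.81, adjusted p = 0.012). BNC1, another mesothelial transcription factor, was called lower as well (log2 difference -2.43 ± 0.58, adjusted p = 0.023), a call lost without the second birth library in the fit without the CF d80 pair. Less than 5% of the fetal level of each of the 3 was in the liver estimate.

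Of 14 immediate early and stress genes, which respond to handling and oxygen as well as to stage, 2 were called higher and 3 lower. The shares over all genes were 16.0% and 11.1%. ATF3, a stress-induced transcription factor, had 96.3 and 99.2 CPM at birth, against 17.2, 18.3, 10.1 and 29.1 CPM in the fetal libraries (log2 difference 2.39 ± 0.4, adjusted p = 0.0114). ZFP36, which destabilises inflammatory messages, had 15.4 and 24.8 CPM at birth, against 4.54, 6.51, 0 and 1.16 CPM in the fetal libraries (log2 difference 3.44 ± 0.95, adjusted p = 0.0326). HSPA1A and HSPH1, heat shock proteins, had log2 differences of -2.57 and -1.36 (adjusted p = 0.023 and 0.0139), with 59.8% and 43% of their fetal level in the liver estimate. The call of DNAJB1 was lost without the first birth library in the fit without the CF d80 pair. Handling and time to freezing are not in the labels, and their part in these values was not tested.

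Of 12 endothelial genes, edgeR called none, 2 had an unadjusted p under 0.05, and the DESeq2 Wald test called 0 higher and 1 lower. VWF, the clotting factor carrier of vessel walls, had 47.6 and 76.3 CPM at birth, against 104, 107, 135 and 188 CPM in the fetal libraries (log2 difference -1.08 ± 0.37, adjusted p = 0.0568). PECAM1, an adhesion protein of vessels, had 52.6 and 82 CPM at birth, against 98.4, 101, 201 and 151 CPM in the fetal libraries (log2 difference -0.98 ± 0.46, adjusted p = 0.129). Both were below the fetal range at birth without passing the test.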
